A study of Mus musculus with 9 samples.

Results

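The protein-coding genes examined here encode the translation initiation factors eIF1 to eIF6 and the elongation factors eEF1 and eEF2, together with the kinases, repressors and modifying enzymes whose symbols carry the same prefixes. They were chosen by symbol alone, as every protein-coding gene whose symbol starts with Eif1, Eif2, Eif3, Eif4, Eif5, Eif6 or Eef, and no measured value entered the choice. The rule gave 72 of the 21900 protein-coding genes in the gene table, with 221 transcripts among them. Of these, 70 had enough counts to be tested, and the other 2, *Eif4a3l1* and *Eef1akmt3*, held at most 5 counts in any library. Another 15 genes with these prefixes are not protein-coding and had no transcript in the data.

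CELF2 is an RNA-binding protein that moves between nucleus and cytoplasm, and the question of the experiment was which cytoplasmic mRNAs come down with it in mice that carry a mutant allele. RNA immunoprecipitation sequencing (RIP-seq) pulls a protein out of a lysate by antibody, and the RNA bound to it is then sequenced. All 9 libraries came from newborn mice (postnatal day 0) that were heterozygous for CELF2 p.R493H, the KI allele, and were prepared from a cytoplasmic fraction of the cortex. The 3 CELF2-KI RIP libraries used 10 µg of rabbit antibody against CELF2 for 3 hours. The 3 IgG RIP libraries used the same amount of normal rabbit IgG for the same time, and the 3 input libraries were RNA from an aliquot kept before antibody was added. Every group therefore had the same genotype and age and no treatment other than the RIP itself. No wild-type library was analysed here, so no value below compares the mutant protein with the normal one. The labels describe 3 biological replicates of each kind without saying which animals were pooled, so p-values measure the spread between these libraries.

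Translation begins when eIF2 brings the initiator tRNA to the small ribosomal subunit, where eIF1, eIF1A, eIF3 and eIF5 assemble with it. The cap-binding protein eIF4E, the scaffold eIF4G and the helicase eIF4A together form eIF4F, which draws that complex to the capped end of an mRNA. During elongation eEF1A delivers aminoacyl-tRNA, the eEF1B subunits recharge eEF1A with GTP, and eEF2 moves the ribosome along. In neurons these steps are held in check by eIF4E-binding proteins, by kinases of the eIF2 alpha subunit and by the kinase of eEF2, which link protein synthesis to nutrient state, stress and activity.

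Total estimated counts ranged from 15919600 to 20052716 in the CELF2-KI RIPs, from 17365561 to 28773130 in the IgG RIPs and from 69125700 to 105116427 in input. Transcripts without a gene in the table held 43.5%, 41.5% and 21.1% of the counts in IgG RIP replicates 1, 2 and 3, against at most 12.6% elsewhere. *Celf2* itself, whose protein was the target of the antibody, was at 638 ± 164 CPM (mean ± SD, n = 3) in the CELF2-KI RIPs, 233 ± 33.4 in the IgG RIPs and 296 ± 14.9 in input. CPM stands for counts per 1e6 protein-coding counts, with the library size scaled by TMM, the trimmed mean of M values. The 4 neuron markers examined were present in every group, with a summed level of 2209 to 2571 CPM in the CELF2-KI RIPs, 1073 to 1601 in the IgG RIPs and 2291 to 2540 in input. Of the other cell types on the label, radial glia, oligodendrocyte precursors and endothelium had every marker above 0 in every library, the astrocyte marker *Aldh1l1* was at 0 in 1 IgG RIP library and the microglial gene *P2ry12* was at 0 in all 6 RIP libraries. Markers of red blood cells, which the label does not list, summed to 58.9 to 67.5 CPM in the CELF2-KI RIPs, 263 to 414 in the IgG RIPs and 650.4 to 834 in input.

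Translation factor mRNAs were more often lower than higher in the CELF2-KI RIP. Over IgG RIP, 5 of the 70 members were higher and 22 lower, where all 15267 genes tested gave 13.4% higher and 13.6% lower. Over input, 5 members were higher and 26 lower, with 14.6% and 15.5% of all genes called in those directions. A gene was called when edgeR's quasi-likelihood test gave a Benjamini-Hochberg adjusted p under 0.01 across all genes and the estimated change was at least 2-fold. Without the 2-fold limit 11 members were higher and 32 lower over IgG RIP, against 22.9% and 19.2% of all genes, and 12 were higher and 34 lower over input, against 26.8% and 20.1%. The median log2 fold change of the members was -0.67 over IgG RIP and -0.68 over input, against -0.06 and 0.19 for all genes tested. Higher than both controls, the rule by which the study named targets, were 4 members, or 5.71% against 7.58% of all genes. Lower than both controls were 20 members, or 28.6% against 9.54%. Library by library, all 3 CELF2-KI RIP values lay below all 6 control values for 33 members, which is 47.1% of them against 19.9% of all genes. For 8 members they lay above all 6, or 11.4% against 25.2%. The libraries are bulk RNA of mixed cells, in which fewer cells of a type and less RNA per cell cannot be told apart, and input is an aliquot of the same lysate, so each difference here is between fractions.

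Abundant members gave a like picture. Among the 3054 genes with a mean input of at least 67.1 CPM, the top 20% of those tested, 11 of 29 members were lower than both controls and 3 were higher, against 9.69% and 15.3% of all genes at that level. The balance of calls did depend on how libraries were scaled. With total counts in place of TMM, 3 members were higher and 32 lower over IgG RIP, and 1 was higher and 37 lower over input, so that 2.63% rather than 16.1% of the calls over input were upward. Over all genes the same change left 937 higher and 3421 lower over IgG RIP and 531 higher and 3581 lower over input, and the upward share of all calls went from 49.8% to 21.5% and from 48.5% to 12.9%. That scaling moved the median of all genes by -0.37 over IgG RIP and -0.46 over input. Taken relative to the median of all genes, the members' median was lower by a log2 difference of -0.62 over IgG RIP and -0.88 over input with TMM. A change of scaling moves nearly all genes alike and so can hardly move that difference, which is therefore no check on the scaling.

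**Figure D1:**
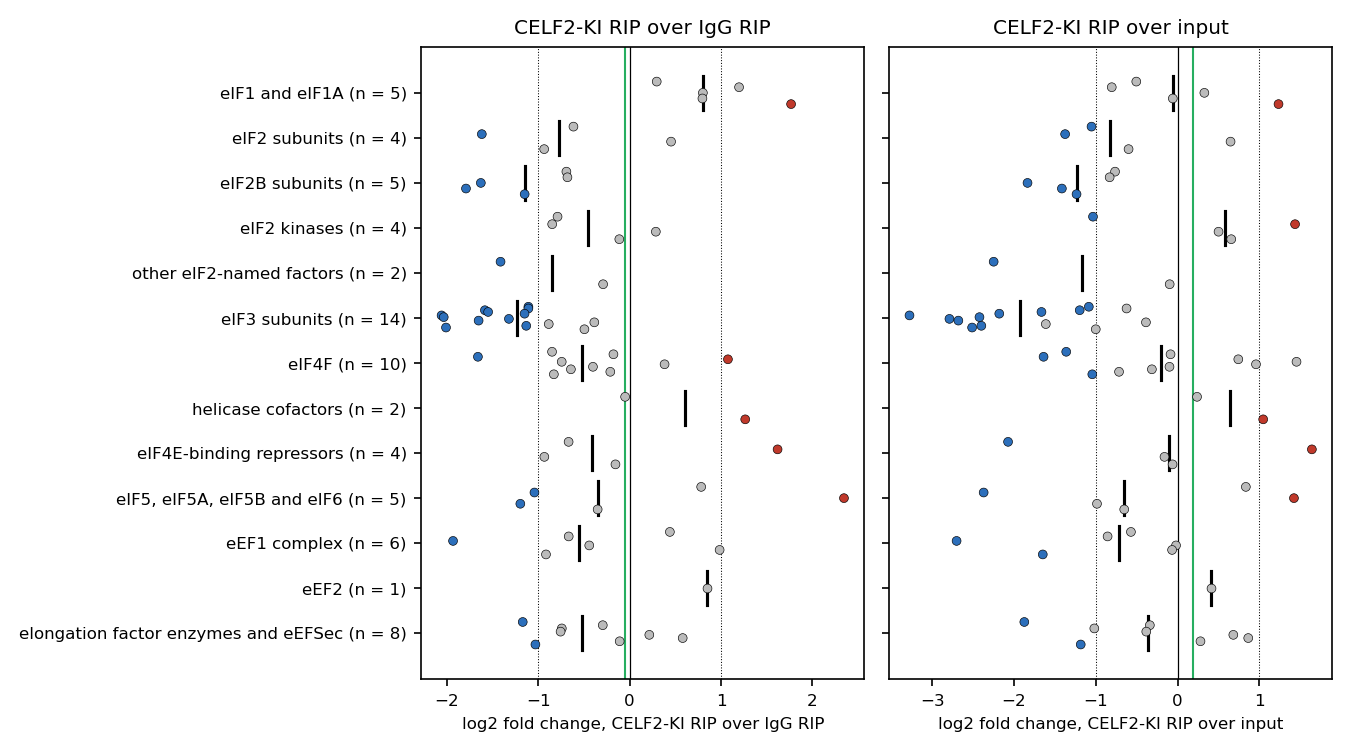
Log2 fold change of each of the 70 tested translation factor genes by factor group, over IgG RIP (left) and over input (right). Each point is a gene, red where it was called higher, blue where called lower and grey otherwise, black bars are group medians, dotted lines mark a 2-fold change and the green line is the median of all 15267 genes tested. All 14 eIF3 points lie to the left of 0 in both panels, with medians of -1.24 and -1.92, while the 5 red points of the left panel fall in 5 different groups.

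The start-codon scanning factors eIF1 and eIF1A stood on the upper side of the class over IgG RIP. All 5 genes had a log2 fold change above 0 there, with a median of 0.80, although *Eif1* turned to -0.07 with total counts. Over input the group's median was -0.06, and 1 gene was called. That gene was *Eif1b*, a close relative of *Eif1*, which enforces accurate selection of the start codon. *Eif1b* was at 156, 215 and 149 CPM in the CELF2-KI RIPs, 37.6, 48.4 and 66.9 in the IgG RIPs and 71.9, 70.7 and 78.3 in input. All 3 CELF2-KI RIP values stood more than 2-fold above the highest IgG RIP value and above every input value. The log2 fold change of *Eif1b* was 1.77 ± 0.21 (SE) over IgG RIP, with an adjusted p of 7.45e-05, and 1.23 ± 0.21 over input, with an adjusted p of 0.000524. Over input it dropped to 0.76 with total counts and to 0.84 with TMM over coding and noncoding genes, and was then no longer called. With upper-quartile scaling it was 0.996, and over the 6 CELF2-KI RIP and input libraries alone it was 0.998 and, with the replicate block, 0.985, each just under the limit.

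*Eif1* itself was at 122, 123.4 and 99.8 CPM in the CELF2-KI RIPs, 78.4, 83.3 and 119 in the IgG RIPs and 155, 153 and 181 in input. Its highest IgG RIP value overlapped the CELF2-KI RIP range, and it passed the threshold in neither comparison. *Eif1ax*, the X-linked gene for eIF1A, was at 45.3, 45.3 and 40.0 CPM in the CELF2-KI RIPs, 24.6, 26.6 and 24.1 in the IgG RIPs and 44.8, 46.5 and 44.6 in input. Its CELF2-KI RIP values lay close to input and exceeded IgG RIP by 0.80 ± 0.11 on the log2 scale, with an adjusted p of 0.000223, which is under 2-fold. Its autosomal relative *Eif1a* was the highest of the group after *Eif1b* by log2 fold change and rested on scattered counts, from 0 to 126 in IgG RIP. *Eif1a* was at 9.03, 5.23 and 12.4 CPM in the CELF2-KI RIPs, 7.88, 3.57 and 0 in the IgG RIPs and 14.95, 15.2 and 16.3 in input. In the fit of the 6 CELF2-KI RIP and input libraries with the replicate block *Eif1a* was called lower over input, at -1.10. The last gene of the group, *Eif1ad*, which encodes a protein related to eIF1A, gave 0.80 ± 0.20 over IgG RIP, under 2-fold, and 0.33 ± 0.19 over input, which turned to -0.15 with total counts.

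The genes of eIF2, the GTPase that carries the initiator tRNA, did not move together. *Eif2s2*, for the beta subunit, was at 20.5, 17.6 and 14.4 CPM in the CELF2-KI RIPs, 42.3, 42.2 and 76.5 in the IgG RIPs and 46.7, 41.7 and 47.7 in input. Every control value was more than 2-fold above every CELF2-KI RIP value, and the gene was lower than both controls, at -1.62 ± 0.24 over IgG RIP and -1.37 ± 0.24 over input, with adjusted p-values of 0.000282 and 0.000647. *Eif2s1*, for the alpha subunit that stress kinases phosphorylate, was called lower over input only, at -1.05 ± 0.18. That call was lost without CELF2-KI RIP replicate 2, at -0.98, and without replicate 3, at -0.92. The gamma subunit has an X-linked and a Y-linked gene. *Eif2s3x* was at 243, 209 and 204 CPM in the CELF2-KI RIPs, 218, 122 and 139 in the IgG RIPs and 139, 144 and 135 in input, and was the highest of the group over IgG RIP at 0.45 ± 0.19, without passing the threshold. *Eif2s3y* was at 5.76, 6.62 and 5.71 CPM in the CELF2-KI RIPs, 11.1, 10.998 and 12.5 in the IgG RIPs and 9.25, 9.99 and 8.16 in input. Its CELF2-KI RIP values lay below all 6 controls, but by less than 2-fold, at -0.94 ± 0.17 over IgG RIP and -0.60 ± 0.16 over input. Between 56.9% and 96.0% of the *Eif2s3y* counts sat on transcripts annotated as noncoding, so the sum is mostly not of the coding mRNA.

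All 5 subunits of eIF2B, the exchange factor that recharges eIF2 with GTP, were below all 6 control libraries in every CELF2-KI RIP library. Among all genes tested 19.9% lay below the controls in this way. The median of the 5 subunit genes was -1.15 against IgG RIP and -1.23 against input. Of the 5, 3 were lower than both controls, or 60% against 9.54% of all genes. *Eif2b4*, for the delta subunit, was at 11.1, 9.77 and 9.55 CPM in the CELF2-KI RIPs, 38.5, 37.6 and 29.3 in the IgG RIPs and 25.9, 25.4 and 29.8 in input. It gave the lowest log2 fold change of the group over IgG RIP, -1.79 ± 0.16, with an adjusted p of 1.39e-05. *Eif2b5*, for the catalytic epsilon subunit, was at 31.7, 22.1 and 25.7 CPM in the CELF2-KI RIPs, 56.4, 64.1 and 55.9 in the IgG RIPs and 63.4, 59.9 and 63.9 in input, and was lower at -1.15 ± 0.15 and -1.23 ± 0.14. *Eif2b3*, for the gamma subunit, was at 4.16, 2.08 and 3.21 CPM in the CELF2-KI RIPs, 9.76, 12.3 and 7.24 in the IgG RIPs and 11.2, 11.3 and 11.2 in input. It was lower at -1.63 ± 0.28 over IgG RIP and -1.83 ± 0.27 over input, on 27 to 52 counts per CELF2-KI RIP library. *Eif2b2*, for the beta subunit, was at 17.7, 13.01 and 12.8 CPM in the CELF2-KI RIPs, 19.9, 22.4 and 27.5 in the IgG RIPs and 25.01, 25.1 and 27.3 in input, and was the highest of the group at -0.68 ± 0.18 over IgG RIP. For *Eif2b2* and for *Eif2b1*, the alpha subunit gene, the adjusted p was under 0.01 over both controls with a change of less than 2-fold. Over the 6 CELF2-KI RIP and input libraries alone with the replicate block both were called lower, at -1.07 and -1.01.

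The 4 kinases that phosphorylate eIF2 alpha showed no common direction. *Eif2ak2* encodes PKR, which is activated by double-stranded RNA, and was at 49.2, 88.2 and 63.0 CPM in the CELF2-KI RIPs, 125, 141 and 95.1 in the IgG RIPs and 24.0, 27.1 and 22.9 in input. Its IgG RIP values were the highest, its input values the lowest and its CELF2-KI RIP values between them, so it was higher over input by 1.44 ± 0.22 and yet gave -0.85 ± 0.21 over IgG RIP. With total counts the excess over input was 0.96, under 2-fold, and the gene was called lower over IgG RIP, at -1.24. The IgG RIP itself exceeded input by 2.28 ± 0.22, with an adjusted p of 0.000134, the largest such excess of any member. *Eif2ak3* encodes PERK, the sensor of endoplasmic reticulum stress, and was at 88.0, 75.3 and 93.0 CPM in the CELF2-KI RIPs, 59.8, 71.4 and 78.9 in the IgG RIPs and 57.7, 60.7 and 62.6 in input. Its 0.29 ± 0.13 over IgG RIP was the highest of the kinases, did not pass the threshold and turned to -0.08 with total counts. *Eif2ak1*, for the heme-regulated kinase, was called lower over input only, at -1.03 ± 0.12, while *Eif2ak4*, for the amino acid sensor GCN2, was called in neither comparison. Among factors that carry an eIF2 name without belonging to the complex, *Eif2a* was at 6.64, 5.70 and 3.93 CPM in the CELF2-KI RIPs, 11.8, 14.0 and 17.7 in the IgG RIPs and 26.5, 24.8 and 26.1 in input. It was lower than both controls, at -1.41 ± 0.22 and -2.25 ± 0.22. *Eif2d*, which encodes a factor that can deliver tRNA independently of eIF2, was at 25.6, 20.6 and 22.9 CPM in the CELF2-KI RIPs, 32.6, 26.5 and 25.4 in the IgG RIPs and 24.8, 23.9 and 25.2 in input, and the libraries overlapped.

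The largest concentration of lower calls was in eIF3, the multi-subunit scaffold that joins the small ribosomal subunit to eIF4F. All 14 subunit genes had log2 fold changes below 0 over both controls and under every scaling tried, with medians of -1.24 over IgG RIP and -1.92 over input. Of the 14, 11 were lower over IgG RIP, or 78.6% against 13.6% of all genes tested. Over input 10 were lower, or 71.4% against 15.5%, and 10 were lower than both controls, or 71.4% against 9.54%. In 12 of the 14 every CELF2-KI RIP library was below every control library, or 85.7% against 19.9% of all genes. Leaving aside *Eif3j2*, the subunits ranged from 8.70 to 110.3 CPM in the CELF2-KI RIPs, from 18.9 to 359.8 in the IgG RIPs and from 20.1 to 232 in input. Between 8 and 11 subunits were lower than both controls when libraries, scaling, filter or transcript set were changed, and 5 were when edgeR's glmTreat tested against a 2-fold change.

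The deepest fall of the group was that of *Eif3f*, which encodes a core subunit. It was at 18.9, 17.0 and 12.7 CPM in the CELF2-KI RIPs, 60.9, 73.5 and 68.1 in the IgG RIPs and 158, 140.4 and 173 in input. The lowest control value was more than 3-fold above the highest CELF2-KI RIP value, and the estimated log2 change was -2.06 ± 0.16 over IgG RIP and -3.28 ± 0.17 over input, with adjusted p-values of 1.08e-05 and 5.11e-07. *Eif3h*, whose product pairs with eIF3f, was at 20.9, 16.6 and 16.3 CPM in the CELF2-KI RIPs, 40.9, 44.5 and 49.1 in the IgG RIPs and 122.99, 111 and 138 in input. Its log2 fold change was -1.47 ± 0.14 for IgG RIP over input and -1.32 ± 0.14 for CELF2-KI RIP over IgG RIP. *Eif3l* was at 23.6, 22.4 and 18.6 CPM in the CELF2-KI RIPs, 79.4, 82.8 and 97.8 in the IgG RIPs and 122, 119 and 127 in input, and its log2 fold changes were -2.01 ± 0.13 and -2.51 ± 0.13. *Eif3k*, for the partner of eIF3l, was at 16.2, 11.5 and 11.3 CPM in the CELF2-KI RIPs, 26.1, 22.8 and 36.3 in the IgG RIPs and 66.6, 64.3 and 74.7 in input. It was lower than both controls at -1.13 ± 0.20 and -2.40 ± 0.21, but at -0.92 over IgG RIP without IgG RIP replicate 3 it was no longer called.

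*Eif3g* and *Eif3i* encode small subunits that, with eIF3b, sit near the mRNA entry channel. *Eif3g* was at 11.4, 10.9 and 10.6 CPM in the CELF2-KI RIPs, 40.8, 43.0 and 50.7 in the IgG RIPs and 58.8, 54.5 and 62.7 in input. The 3 CELF2-KI RIP values differed by less than 1 CPM, and the log2 fold changes were -2.03 ± 0.13 and -2.42 ± 0.13. *Eif3i* was at 10.95, 8.70 and 9.37 CPM in the CELF2-KI RIPs, 23.9, 30.5 and 36.9 in the IgG RIPs and 63.7, 58.7 and 63.6 in input. Its log2 fold changes were -1.65 ± 0.18 over IgG RIP and -2.68 ± 0.18 over input. *Eif3b*, the third gene of that module, was at 110.3, 77.3 and 98.4 CPM in the CELF2-KI RIPs, 212, 196 and 209 in the IgG RIPs and 141, 139 and 161 in input. It was called lower over IgG RIP, at -1.11 ± 0.14, but not over input, at -0.62 ± 0.14. Without CELF2-KI RIP replicate 2 the call over IgG RIP was lost, at -0.98, and over input the gene was called lower with total counts, at -1.07, and with TMM over coding and noncoding genes, at -1.001.

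The genes *Eif3a*, *Eif3c*, *Eif3d* and *Eif3e* were also lower than both controls. *Eif3a*, for the largest subunit, was at 80.9, 64.1 and 74.0 CPM in the CELF2-KI RIPs, 177, 131 and 164 in the IgG RIPs and 159, 147 and 158 in input. Its change was close to the 2-fold limit in both comparisons, -1.11 ± 0.14 and -1.08 ± 0.14, and without CELF2-KI RIP replicate 2 the change over input was -0.999 on the log2 scale, just inside the limit, and no longer called. *Eif3c* was at 109.6, 82.7 and 97.1 CPM in the CELF2-KI RIPs, 246, 261 and 359.8 in the IgG RIPs and 221, 209.6 and 232 in input, with changes of -1.58 ± 0.16 and -1.196 ± 0.16. *Eif3d*, which can itself bind the cap of some mRNAs, was at 32.7, 25.9 and 24.5 CPM in the CELF2-KI RIPs, 72.2, 76.5 and 94.6 in the IgG RIPs and 88.0, 81.6 and 94.0 in input. Its fall was of like size over the 2 controls, -1.55 ± 0.15 and -1.66 ± 0.15. *Eif3e* was at 23.8, 14.2 and 11.9 CPM in the CELF2-KI RIPs, 28.4, 36.3 and 46.1 in the IgG RIPs and 74.8, 71.7 and 79.7 in input, and CELF2-KI RIP replicate 1 stood close to the lowest IgG RIP value. Its change over IgG RIP was -1.15 ± 0.26 with an adjusted p of 0.00332, and the call was lost without CELF2-KI RIP replicate 2, with an adjusted p of 0.0172, without CELF2-KI RIP replicate 3, with 0.0140, and without IgG RIP replicate 3, at a log2 fold change of -0.95.

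Exceptions within eIF3 were the loosely bound subunit eIF3j and eIF3m. *Eif3j1* was at 19.8, 14.5 and 15.6 CPM in the CELF2-KI RIPs, 21.7, 18.9 and 24.6 in the IgG RIPs and 22.2, 23.0 and 20.1 in input. With -0.39 ± 0.16 over IgG RIP it was the highest of the group, and its CELF2-KI RIP values overlapped the controls. Its near-identical copy *Eif3j2* held 0, 0 and 6 counts in the CELF2-KI RIPs, 0, 11 and 0 in the IgG RIPs and 49, 42 and 20 in input, too few to read, and reads may have been divided between the copies. *Eif3m*, which was chosen for mention after its values were seen, was at 30.1, 20.9 and 19.3 CPM in the CELF2-KI RIPs, 32.8, 35.8 and 30.5 in the IgG RIPs and 47.9, 49.3 and 43.4 in input. Every CELF2-KI RIP value was below all controls, with -0.49 ± 0.17 over IgG RIP and -0.9999 ± 0.17 over input, where the estimate fell just short of 2-fold. Other settings placed it past that limit, among them the replicate block at -1.02, that block over the 6 CELF2-KI RIP and input libraries at -1.26 and total counts at -1.45.

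**Figure D2:**
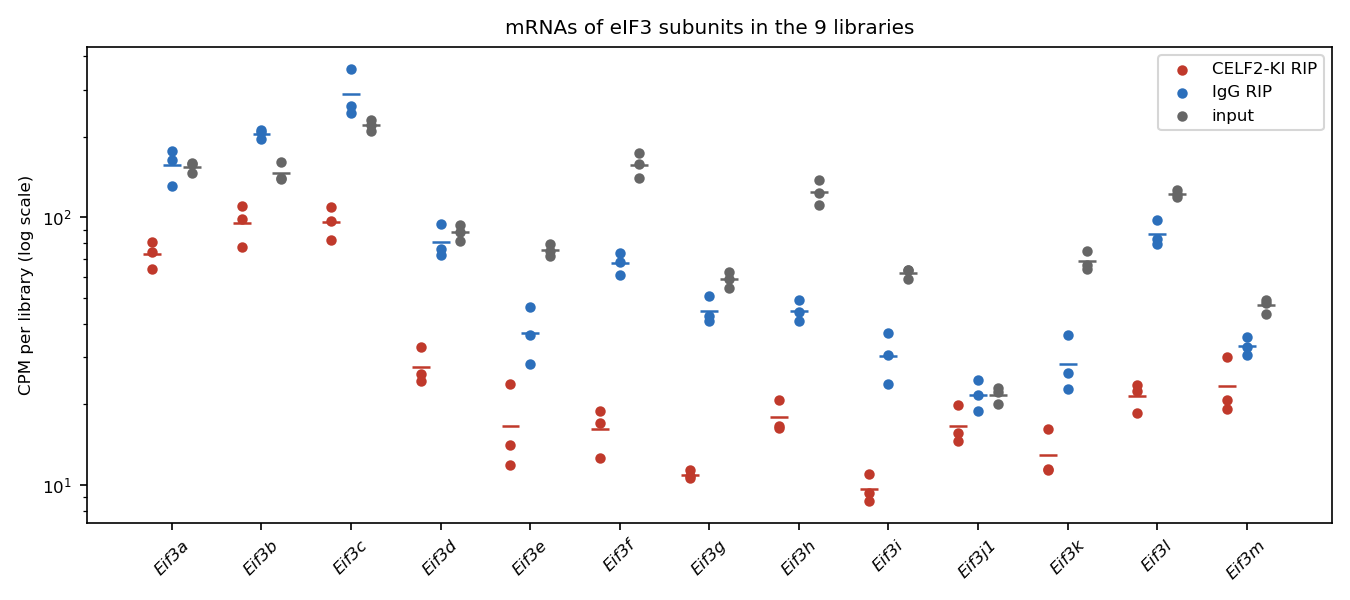
CPM of 13 eIF3 subunit genes in the 9 libraries on a log axis, with a bar at the mean of each group (n = 3 libraries). CELF2-KI RIP libraries (red) lie lowest for every subunit except Eif3j1, where 1 of them overlaps IgG RIP (blue). Eif3j2, with at most 49 counts in a library, is not drawn.

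In the cap-binding complex eIF4F the helicase, the cap-binding protein and the scaffold behaved differently. *Eif4a3*, whose product is a helicase of the exon junction complex rather than of eIF4F, was at 29.7, 19.2 and 22.9 CPM in the CELF2-KI RIPs, 66.0, 76.2 and 84.9 in the IgG RIPs and 74.7, 74.2 and 74.7 in input. It was the lowest of the group over IgG RIP and lower than both controls, at -1.66 ± 0.17 and -1.64 ± 0.16, with adjusted p-values of 2.58e-05 and 2.35e-05. Of the eIF4A helicase genes, *Eif4a1* was at 278, 124 and 180.4 CPM in the CELF2-KI RIPs, 314, 327 and 408 in the IgG RIPs and 488, 472 and 536 in input, below all controls, and was called lower over input at -1.36 ± 0.25. *Eif4a2*, which predominates in neurons, was at 161, 125 and 114 CPM in the CELF2-KI RIPs, 147, 133 and 173 in the IgG RIPs and 141, 171 and 113 in input, and its libraries overlapped in all 3 groups, with -0.18 ± 0.18 over IgG RIP. Over transcripts with matching accession versions alone it was called lower over IgG RIP, at -1.33 with an edgeR adjusted p of 0.00497.

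*Eif4e*, for the cap-binding protein itself, was at 109, 139 and 105.01 CPM in the CELF2-KI RIPs, 53.7, 60.1 and 53.7 in the IgG RIPs and 71.4, 70.0 and 69.4 in input. All 3 CELF2-KI RIP values were above all 6 controls, and the estimated log2 change was 1.08 ± 0.13 over IgG RIP, with an adjusted p of 6.47e-05, and 0.74 ± 0.12 over input, under 2-fold. The call over IgG RIP stood close to the limit and depended on the processing. It was lost at 0.70 with total counts, 0.81 with upper-quartile scaling, 0.85 with TMM over coding and noncoding genes, 0.98 without the filter on low counts, 0.94 with curated transcripts and 0.96 with matching accession versions, with glmTreat at an adjusted p of 0.427, at 0.94 without CELF2-KI RIP replicate 2 and at 0.97 without input replicate 1, 2 or 3. Over input *Eif4e* was called higher with curated transcripts, at 1.405, and with matching versions, at 1.36. *Eif4e2*, for the repressive cap-binding protein 4EHP, was at 49.0, 83.1 and 62.9 CPM in the CELF2-KI RIPs, 54.6, 68.8 and 26.6 in the IgG RIPs and 29.4, 33.5 and 37.3 in input, above input in every CELF2-KI RIP library but spread across the IgG RIP values, and not called. *Eif4e3* was at 9.03, 13.6 and 11.6 CPM in the CELF2-KI RIPs, 18.7, 14.2 and 12.3 in the IgG RIPs and 10.8, 13.1 and 12.8 in input, with overlapping libraries. *Eif4e1b*, an oocyte relative of eIF4E, was at 0.959, 3.31 and 1.61 CPM in the CELF2-KI RIPs, 3.19, 3.77 and 2.94 in the IgG RIPs and 0.683, 0.793 and 0.663 in input, and was higher in IgG RIP than in input by 2.20 ± 0.43. Its CELF2-KI RIP libraries held at most 43 counts, and it was not called there.

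None of the scaffold genes was above the controls. *Eif4g1* was at 476, 346 and 443 CPM in the CELF2-KI RIPs, 661, 587 and 726 in the IgG RIPs and 528, 478 and 565 in input. It was below all controls but by under 2-fold, -0.64 ± 0.14 over IgG RIP. *Eif4g2*, for a scaffold that lacks the eIF4E site and serves cap-independent initiation, was at 702, 546 and 561 CPM in the CELF2-KI RIPs, 665, 689 and 740.4 in the IgG RIPs and 1056, 973 and 941 in input. It was not called against either control, with -0.21 ± 0.12 and -0.72 ± 0.12. *Eif4g3* was at 58.1, 64.0 and 86.4 CPM in the CELF2-KI RIPs, 145, 101 and 124 in the IgG RIPs and 146, 128 and 155 in input. It lay below all controls and was called lower over input, at -1.04 ± 0.18, but not without CELF2-KI RIP replicate 1, at -0.93, or replicate 2, at -0.99. Over IgG RIP it was -0.83 ± 0.18, and was called lower there at -1.36 with curated transcripts, -1.34 with matching versions, -1.198 with total counts, -1.09 with upper-quartile scaling, -1.05 with TMM over coding and noncoding genes and -1.01 without CELF2-KI RIP replicate 3.

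Among the cofactors that stimulate the eIF4A helicase, *Eif4h* was one of the 4 members above both controls. *Eif4h* was at 464, 464 and 463 CPM in the CELF2-KI RIPs, 176, 193 and 209.7 in the IgG RIPs and 219.8, 225 and 227 in input, so that the CELF2-KI RIP libraries differed by less than 2 CPM and lay more than 2-fold above the highest control. The estimated log2 change was 1.26 ± 0.10 over IgG RIP and 1.05 ± 0.10 over input, with adjusted p-values of 9e-06 and 1.36e-05. The margin over the 2-fold limit was small. Without input replicate 1, 2 or 3 the fitted change over input was 0.92, 0.94 and 0.95, below the limit, with total counts it was 0.59, and over the 6 libraries of these groups alone, with or without the replicate block, it was 0.82. It was 0.91 with the scaling or the test of DESeq2, 0.81 with upper-quartile scaling and 0.66 with TMM over coding and noncoding genes. Without the low-count filter it was 0.93, with matching versions 0.98, and glmTreat gave an adjusted p of 0.424. The call of *Eif4h* against both controls was kept in 8 of the 19 alternative settings that could be compared. *Eif4b*, for the other cofactor, was at 291, 230.4 and 299 CPM in the CELF2-KI RIPs, 263, 277 and 308 in the IgG RIPs and 222, 225 and 248 in input, with overlapping libraries and no call.

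Of the repressors that hold eIF4E away from eIF4G, *Eif4ebp2* stood out. It encodes 4E-BP2, the eIF4E-binding protein that predominates in the brain. *Eif4ebp2* was at 397, 611 and 516 CPM in the CELF2-KI RIPs, 156, 152 and 188 in the IgG RIPs and 157, 151 and 179.6 in input. IgG RIP and input overlapped each other, and the lowest CELF2-KI RIP value was more than 2-fold above the highest of them. The estimated log2 change was 1.62 ± 0.16 over IgG RIP and 1.64 ± 0.16 over input, with adjusted p-values of 2.81e-05 and 2.23e-05. *Eif4ebp2* alone of the 4 enriched members kept its call against both controls under each of the 19 alternative settings that could be compared.

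None of the related genes was enriched, and *Eif4ebp1* and *Eif4ebp3* were at low levels. *Eif4ebp1* was at 1.12, 0.693 and 0.625 CPM in the CELF2-KI RIPs, 1.69, 1.49 and 0.716 in the IgG RIPs and 3.00, 3.67 and 3.64 in input, and was lower over input at -2.07 ± 0.39. *Eif4ebp3* was at 2.88, 2.39 and 3.30 CPM in the CELF2-KI RIPs, 4.88, 3.37 and 8.02 in the IgG RIPs and 3.03, 3.14 and 3.38 in input, the lowest log2 fold change of the repressors over IgG RIP, -0.93 ± 0.33, with an adjusted p of 0.0325. *Eif4enif1*, for the transporter that carries eIF4E into the nucleus, gave -0.16 ± 0.13 and -0.06 ± 0.13 and was not called.

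The factor eIF5A relieves ribosome stalling and exists in a ubiquitous and a more restricted form. *Eif5a2*, for the restricted form, was at 27.7, 35.3 and 28.5 CPM in the CELF2-KI RIPs, 7.51, 7.43 and 3.15 in the IgG RIPs and 12.96, 11.7 and 9.52 in input. Every CELF2-KI RIP value was more than 2-fold above every control value, and its log2 fold change over IgG RIP, 2.35 ± 0.30, was the highest of all members, with an adjusted p of 9.82e-05. Over input it was 1.42 ± 0.28 with an adjusted p of 0.00129, and without input replicate 3 it was 1.1995 with an adjusted p of 0.0124, no longer called. With total counts it was 0.95, under 2-fold. With curated transcripts it was 1.37 with an edgeR adjusted p of 0.0280, and glmTreat gave an adjusted p of 0.116. The call against both controls was lost in each of these settings and with matching accession versions. *Eif5a*, for the ubiquitous form, was at 59.3, 36.1 and 40.1 CPM in the CELF2-KI RIPs, 83.1, 96.3 and 99.6 in the IgG RIPs and 232, 229 and 239.8 in input. It was lower than both controls, at -1.04 ± 0.17 over IgG RIP and -2.37 ± 0.18 over input. The call over IgG RIP rested on single libraries, with -0.90, -0.96 and -0.99 without CELF2-KI RIP replicate 2, CELF2-KI RIP replicate 3 and IgG RIP replicate 3.

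*Eif5*, for the GTPase-activating partner of eIF2, was chosen for mention after its values were seen. *Eif5* was at 211, 236 and 209 CPM in the CELF2-KI RIPs, 134, 113 and 134 in the IgG RIPs and 125, 121 and 121 in input, above all 6 controls, but by under 2-fold, 0.78 ± 0.11 and 0.84 ± 0.11. *Eif5b*, for the GTPase that joins the ribosomal subunits, was at 19.7, 18.9 and 19.7 CPM in the CELF2-KI RIPs, 49.6, 36.1 and 47.8 in the IgG RIPs and 38.3, 37.0 and 40.2 in input. It was the lowest of its group over IgG RIP at -1.196 ± 0.14 and was called there, while -0.98 ± 0.14 over input was just inside the 2-fold limit and went past it in other settings, to -1.44 with total counts. *Eif6*, for the factor that keeps the large subunit apart, gave -0.35 ± 0.20 and -0.65 ± 0.19 and was called in neither.

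Of the main elongation factors, none was called against either control. *Eef2*, for the translocase, was at 2841, 2502 and 2685 CPM in the CELF2-KI RIPs, 1372, 1584 and 1524 in the IgG RIPs and 1970.2, 1884 and 2191 in input. Each CELF2-KI RIP value was above all controls, and the change was 0.84 ± 0.11 over IgG RIP, with an adjusted p of 0.0001, under 2-fold. Over input it was 0.41 ± 0.11 and turned to -0.05 with total counts. *Eef1a1* was at 3135, 2112 and 2350.1 CPM in the CELF2-KI RIPs, 1614, 1756 and 2229 in the IgG RIPs and 3813, 3588 and 3876 in input, so the CELF2-KI RIP values lay below input and overlapped IgG RIP. *Eef1a2*, for the form of eEF1A that takes over in mature neurons and muscle, was at 149, 134 and 138 CPM in the CELF2-KI RIPs, 198, 221 and 249.98 in the IgG RIPs and 256, 235 and 272 in input. It was below all controls, at -0.67 ± 0.11 over IgG RIP and -0.86 ± 0.11 over input, under 2-fold in both. Over the 6 libraries of CELF2-KI RIP and input alone it was called lower, at -1.09 with or without the replicate block.

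The genes of the exchange complex were not alike. *Eef1b2*, which encodes the catalytic exchange subunit, was at 31.5, 24.0 and 22.7 CPM in the CELF2-KI RIPs, 83.6, 87.0 and 128 in the IgG RIPs and 166, 168 and 175 in input. It was lower than both controls, at -1.93 ± 0.19 and -2.70 ± 0.19, with adjusted p-values of 2.25e-05 and 3.34e-06. *Eef1g*, chosen for mention after its values were seen, was at 143, 101 and 96.1 CPM in the CELF2-KI RIPs, 199.9, 219 and 223 in the IgG RIPs and 357, 342 and 366 in input, and was called lower over input. Over IgG RIP it was -0.92 ± 0.15, and other settings called it lower there, among them upper-quartile scaling at -1.18. *Eef1e1*, whose product belongs to the complex of tRNA synthetases, was at 22.9, 24.1 and 17.2 CPM in the CELF2-KI RIPs, 7.44, 10.2 and 14.8 in the IgG RIPs and 21.6, 23.4 and 22.2 in input. Its CELF2-KI RIP values lay around input, and its 0.98 ± 0.24 over IgG RIP was the highest of the eEF1 group, with an adjusted p of 0.00517 and a change just under 2-fold. The delta subunit gene *Eef1d* gave -0.44 ± 0.12 and -0.02 ± 0.12 and was not called.

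Most genes for enzymes that modify elongation factors were near or below the controls. *Eef1akmt1*, for a lysine methyltransferase of eEF1A, was at 2.88, 3.31 and 3.03 CPM in the CELF2-KI RIPs, 6.82, 7.53 and 6.45 in the IgG RIPs and 11.5, 11.6 and 10.8 in input. It was the lowest of its group over IgG RIP and lower than both controls, at -1.17 ± 0.18 and -1.87 ± 0.17. With curated transcripts alone both calls were lost, at -0.36 against IgG RIP with an edgeR adjusted p of 0.850 and at -1.29 over input with 0.463, and with matching versions alone it was not among the genes tested. *Eefsec*, for the factor that delivers selenocysteine, was at 4.32, 5.54 and 5.62 CPM in the CELF2-KI RIPs, 9.88, 14.1 and 7.81 in the IgG RIPs and 10.8, 12.98 and 11.4 in input, and was lower than both controls at -1.03 ± 0.24 and -1.18 ± 0.23. That call over IgG RIP had an adjusted p of 0.00393, which became 0.0164, 0.0109 and 0.0106 without CELF2-KI RIP replicates 1, 2 and 3 and 0.0133 without IgG RIP replicate 2. With curated transcripts the adjusted p of *Eefsec* was 0.01298 against IgG RIP and 0.0299 against input. With matching versions it was 0.0102 and 0.0200, so both calls were lost. *Eef2k*, for the calcium-dependent kinase that inhibits eEF2, was at 122, 116 and 115 CPM in the CELF2-KI RIPs, 83.9, 85.6 and 66.3 in the IgG RIPs and 63.1, 64.3 and 66.2 in input, above all 6 controls. It was the highest of its group over IgG RIP at 0.58 ± 0.12 and reached 0.86 ± 0.12 over input, under 2-fold in both, and both *Eef2* and this gene were above every control library. The other 5 tested genes of the group, *Eef1akmt2*, *Eef1akmt4*, the readthrough gene *Eef1akmt4-ece2*, *Eef1aknmt* and *Eef2kmt*, were called in neither comparison, and *Eef1akmt4* and the readthrough share sequence. Over the 6 CELF2-KI RIP and input libraries with the replicate block *Eef1akmt4* was called lower, at -1.25.

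Summed within a library, the factors changed in their proportions to each other. Translation factors held 0.861% ± 0.131 of protein-coding counts in the CELF2-KI RIPs, 0.994% ± 0.0680 in the IgG RIPs and 1.43% ± 0.0354 in input (SD, n = 3). These are shares of counts, which grow with transcript length, and do not depend on the scaling between libraries. The eIF3 subunits made up 4.46%, 4.00% and 4.17% of the translation factor counts in the CELF2-KI RIPs, 12.1%, 11.6% and 12.5% in the IgG RIPs and 10.7%, 10.5% and 10.9% in input. Every CELF2-KI RIP share was below every control share. Since *Eef1a1* and *Eef2* together held 50.04% of the member counts in the CELF2-KI RIPs, 36.0% in the IgG RIPs and 45.8% in input, the shares were also taken without them. The eIF3 share was then 8.46% ± 0.840 in the CELF2-KI RIPs, 18.9% ± 0.763 in the IgG RIPs and 19.7% ± 0.533 in input.

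Other groups differed in both directions. *Eef2* took 24.9%, 25.9% and 26.7% of the member counts in the CELF2-KI RIPs, between 14.98% and 17.5% in the IgG RIPs and between 15.6% and 16.7% in input. The eIF4E-binding repressors took 3.97%, 7.03% and 5.81% in the CELF2-KI RIPs and at most 2.67% in any control, most of it from *Eif4ebp2* in each CELF2-KI RIP. Helicase cofactors took 7.12% ± 0.485 in the CELF2-KI RIPs, 5.10% ± 0.0867 in the IgG RIPs and 3.62% ± 0.117 in input. For eIF4F the share was 15.8% ± 0.623 in the CELF2-KI RIPs, 23.4% ± 0.812 in the IgG RIPs and 19.7% ± 0.558 in input. No test was run on these shares.

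**Figure D3:**
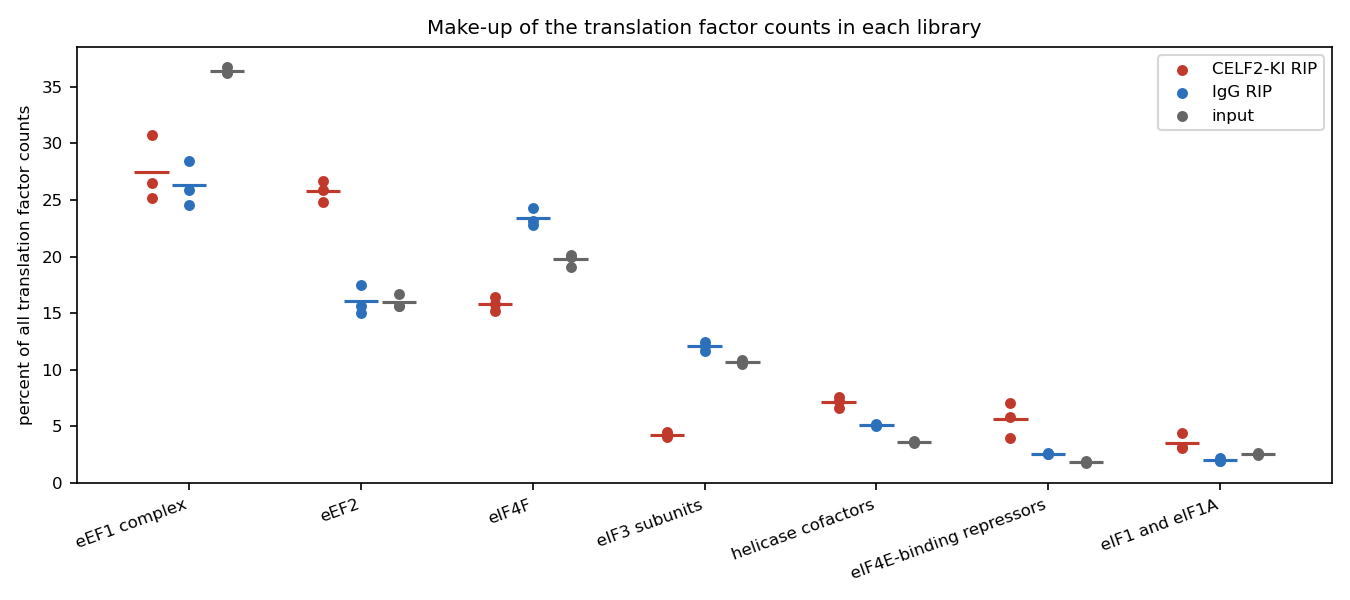
Percent of all translation factor counts held by 7 factor groups in each library, with a bar at the group mean (n = 3 libraries). The eIF3 subunits held 4.21% in the CELF2-KI RIPs against 12.1% and 10.7% in the IgG RIPs and input, and eEF2 held 25.8% against 16.04% and 15.96%.

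Ratios of related genes within a library are likewise free of the scaling between libraries. For 13 pairs the log2 ratio of counts was compared between the 3 CELF2-KI RIP and the 6 control libraries with an exact two-sided permutation test, adjusted over the 13 pairs. Pairs that share *Eif4e* or *Eif4g1* are not independent of each other. In 8 pairs the 2 sets did not overlap, each with an exact permutation p = 0.0238, the smallest this design allows, and an adjusted p of 0.0387. How often ratios of other gene pairs separate in this way was not computed, so the count cannot be called particular to these pairs. Among single genes tested, 25.2% had all CELF2-KI RIP values above all 6 controls and 19.9% had them below. The ratio differed most for *Eif5a2* to *Eif5a*, with log2 ratios of -1.10, -0.03 and -0.49 in the CELF2-KI RIPs, -3.46, -3.69 and -4.97 in the IgG RIPs and -4.16, -4.30 and -4.65 in input, a mean difference of 3.67. For *Eif4ebp2* to *Eif4ebp1* the difference was 2.94, with few counts behind *Eif4ebp1*. *Eif1b* to *Eif1* gave log2 ratios of 0.36, 0.80 and 0.57 in the CELF2-KI RIPs and between -1.21 and -0.78 in all 6 controls, so that the sign of the ratio turned, with a difference of 1.60. *Eif4h* to *Eif4b* gave 0.67, 1.01 and 0.63 against -0.58 to 0.01, a difference of 1.07.

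The eIF4A helicases also separated, *Eif4a2* to *Eif4a1* being higher by 1.05 in the CELF2-KI RIPs, with log2 ratios of -0.79, 0.02 and -0.66 against -2.24 to -1.10 in the controls. Using curated transcripts alone the difference was 1.64 and the adjusted p 0.591. The ratio was lower in the CELF2-KI RIPs for *Eif4e3* to *Eif4e*, at a difference of -1.15, and for *Eef1a2* to *Eef1a1*, at -0.68. The controls differed from each other for *Eef1a2* to *Eef1a1*, with mean log2 ratios of -3.06 in the IgG RIPs and -3.89 in input. The CELF2-KI RIP mean was -4.15, a difference of -1.10 from IgG RIP and of only -0.26 from input. For *Eif2s3y* to *Eif2s3x* the difference was -1.33, but with curated transcripts alone the difference was 0.75 with an adjusted p of 0.550, since the curated *Eif2s3y* transcript then held 0 counts and the added 0.5 counts set the ratio. The pairs *Eif4e2* to *Eif4e*, *Eif4g2* to *Eif4g1* and *Eif4g3* to *Eif4g1* overlapped, with differences of -0.21, 0.02 and -0.46. With curated transcripts alone *Eif4e2* to *Eif4e* separated, at -0.59 with an exact permutation test adjusted p of 0.0442, and *Eif4g3* to *Eif4g1* was at -1.32 with 0.0774. *Eif1a* to *Eif1ax* and *Eif3j2* to *Eif3j1* could not be read because a library held 0 counts of the first gene. With each replicate number kept as a block no pair can go below an exact permutation p = 0.0741, and the adjusted p of the 8 pairs was 0.120.

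**Figure D4:**
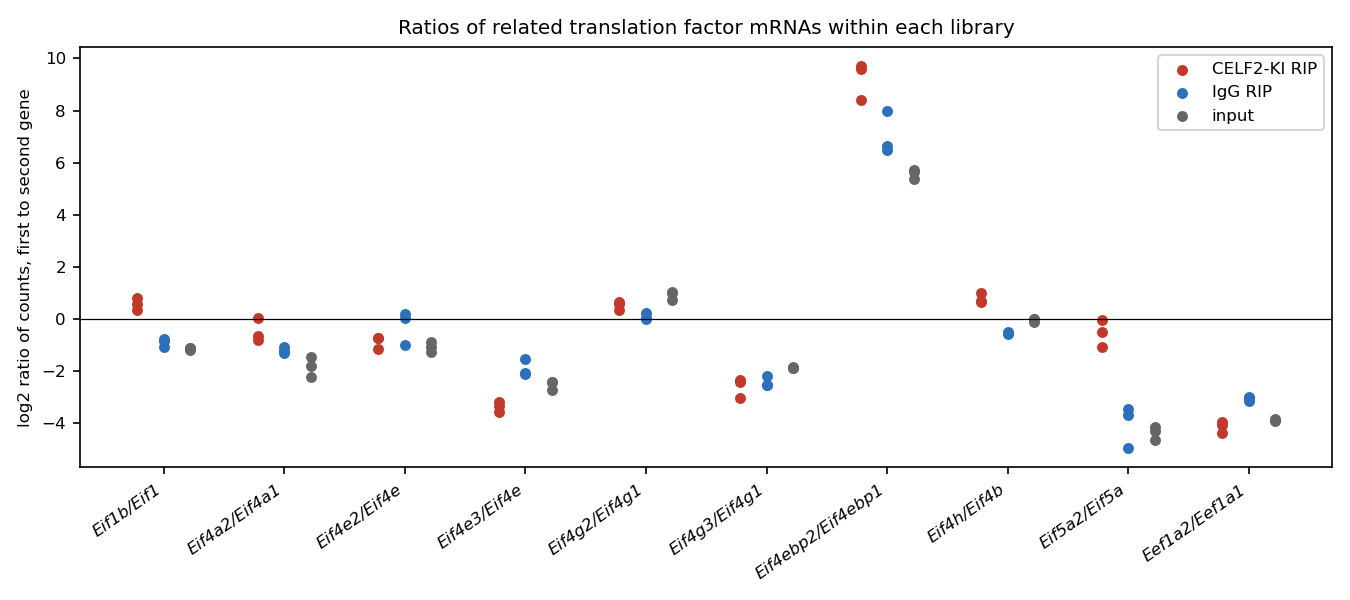
Log2 ratio of the counts of 2 related genes in each of the 9 libraries, for the 10 pairs with enough counts that are not sex-linked. Each point is a library, and a height above 0 means more counts of the first gene. For Eif1b to Eif1 and Eif5a2 to Eif5a all CELF2-KI RIP points (red) lie above all controls, and for Eif4e3 to Eif4e and Eef1a2 to Eef1a1 all lie below.

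The controls were also compared with each other. In IgG RIP against input 2 members were higher and 8 lower, where 6.79% and 5.0% of all genes were called in those directions. Without the 2-fold limit 3 were higher and 17 lower, against 12% and 11.3%. The higher ones were *Eif2ak2* and *Eif4e1b*, described above. The lower ones included 5 eIF3 subunits, with -1.03 ± 0.25 for *Eif3e*, -1.22 ± 0.15 for *Eif3f*, -1.47 ± 0.14 for *Eif3h*, -1.03 ± 0.17 for *Eif3i* and -1.27 ± 0.20 for *Eif3k*. The rest were *Eif5a* at -1.33 ± 0.17, *Eef1a1* at -1.01 ± 0.17 and *Eef1e1* at -1.05 ± 0.23. For the 5 eIF3 subunits and *Eif5a* the CELF2-KI RIP was lower again than the IgG RIP, whereas *Eef1a1* and *Eef1e1* were not. Several of these calls lay near the limits, and 4 lower calls were left without IgG RIP replicate 1, 5 without IgG RIP replicate 2 and 5 without input replicate 3. The call of *Eif4e1b* was lost without IgG RIP replicate 2, at an adjusted p of 0.0111, and without input replicate 1, 2 or 3, at 0.0181, 0.0145 and 0.0176.

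Shares of single transcripts rarely separated the CELF2-KI RIPs from the controls. Of the 182 transcripts of the 34 tested members that had several, 4 had shares that did not overlap, or 2.20% against 6.06% of the 52868 transcripts of all tested genes with several. *Eif4e2*, chosen after its values were seen, is described as an example without a test. One curated transcript held 72.2%, 71.8% and 70.7% of its counts in the CELF2-KI RIPs, 57.7%, 65.5% and 58.1% in the IgG RIPs and 49.3%, 52.2% and 47.6% in input. A second held 18.6%, 15.6% and 14.0% in the CELF2-KI RIPs and between 23.8% and 44.3% in the controls. The pseudoaligner divides reads among transcripts that overlap, so these shares carry an error that the counts do not show.

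Many translation factor mRNAs are known to start with a C and a run of pyrimidines, the 5' terminal oligopyrimidine (TOP) element through which nutrient signaling sets their translation. RefSeq starts on GRCm38.p6 were available for 55 tested members, and 14 of them, or 25.5%, had a C followed by at least 4 further C or T bases beginning within 5 bases of the annotated start on the transcribed strand. The share was 18.6% of all 21263 protein-coding promoters and 23.6% of the tested genes with a start. The starts below run from 10 bases before to 20 bases after the annotated position, in lower case. Capitals mark the run from the C nearest the annotated start that met the rule. Pyrimidines directly before that C were left in lower case. The first 3 show an eIF3 subunit with the deepest fall, the X-linked eIF2 gamma gene and eEF1A, which all hold the run, and the last 4 are the members above both controls, in which the search found none.
Eif3f (chr7:108934405-108934434, plus strand): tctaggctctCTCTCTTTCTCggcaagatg
Eif2s3x (chrX:94212632-94212661, minus strand): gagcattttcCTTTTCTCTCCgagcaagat
Eef1a1 (chr9:78481705-78481734, minus strand): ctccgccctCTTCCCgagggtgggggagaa
Eif1b (chr9:120492596-120492625, plus strand): gcgcggggctaaatacgcggcgccggccat
Eif4h (chr5:134639390-134639419, minus strand): acttgcgatcaggcagcgcggcggacagcc
Eif4ebp2 (chr10:61452650-61452679, minus strand): cgcagcgggacgaccgggcgagagcaggcg
Eif5a2 (chr3:28781267-28781296, plus strand): gcccgggctgggcgggccggggcggggagc

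The median log2 fold change over IgG RIP was -0.66 for the 14 members with a run and -0.61 for the 41 without, and 3 and 12 of them were lower than both controls. Of the 10 eIF3 subunits with a start, 3 had the run, *Eif3b*, *Eif3f* and *Eif3l*, with log2 fold changes of -1.11, -2.06 and -2.01. Members with the run and values above 0 included *Eif1ad*, *Eif2s3x* and *Eef1a1*. Annotated starts may lie some bases from the true ones, and with a window of 15 bases 24 members had a run. Their median was then -0.47 and that of the other members -0.69, so the order of the medians turned.

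Of 39 other genes of the pathway, all tested, 2 were higher and 5 lower over IgG RIP, with a median of -0.02, and 5 were higher and 5 lower over input. Those are 5.13% and 12.8% over IgG RIP, against 13.4% and 13.6% of all genes, and 12.8% each way over input, against 14.6% and 15.5%. Higher than both controls were 2, or 5.13% against 7.58%, and lower than both were 3, or 7.69% against 9.54%, so the pathway list lay near or below the background. The 2 higher ones were *Paip2b* and *Ppp1r15b*. *Paip2b*, for an inhibitor of the poly(A)-binding protein, was at 139.9, 131 and 138 CPM in the CELF2-KI RIPs, 44.2, 52.9 and 73.2 in the IgG RIPs and 54.4, 56.4 and 56.3 in input. *Ppp1r15b* encodes CReP, which directs a phosphatase to eIF2 alpha. It was at 375, 593 and 397 CPM in the CELF2-KI RIPs, 119, 119.9 and 145 in the IgG RIPs and 173, 175 and 171 in input, with 1.83 over IgG RIP and 1.39 over input on the log2 scale. Its stress-induced relative *Ppp1r15a*, for GADD34, went the other way, at 4.88, 4.23 and 4.46 CPM in the CELF2-KI RIPs, 12.3, 13.9 and 14.5 in the IgG RIPs and 15.95, 13.8 and 16.9 in input, with -1.58 and -1.78. *Mknk1*, for a kinase that phosphorylates eIF4E, was lower than both controls at 8.40, 7.54 and 3.75 CPM in the CELF2-KI RIPs, 18.7, 13.7 and 17.9 in the IgG RIPs and 15.6, 17.3 and 18.4 in input. *Rps6kb2*, for a ribosomal protein S6 kinase, had 0 counts in all 3 CELF2-KI RIP libraries and was at 1.63, 1.09 and 4.44 CPM in the IgG RIPs and 2.24, 1.60 and 1.49 in input. Taking 3 counts per library as the floor, it was at least 9.69-fold lower than IgG RIP and at least 7.21-fold lower than input. The bound against IgG RIP rested on replicate 3, without which it was 5.52-fold.

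Red blood cell markers were also lower in the CELF2-KI RIPs. All 3 of them, *Hbb-bs*, *Hba-a1* and *Alas2*, were called lower over IgG RIP and 2 of the 3 over input. *Hbb-bs* and *Hba-a1* were lower in IgG RIP than in input, which is the order also seen for *Eif3f* and *Eif3h*. *Alas2* went the other way between the controls, at 0.59 ± 0.18 for IgG RIP over input, and was not called there. None of the 3 markers was at 0 in any library, and their part in the results for translation factors was not tested. Of the 4 neuron markers, 2 were higher over IgG RIP and none was called over input. Their log2 fold changes over input were 0.24 for *Tubb3*, 0.79 for *Snap25*, -0.64 for *Neurod6* and -0.93 for *Stmn2*. *Stmn2* was also called lower in IgG RIP against input, at -1.08. The part of the neuron markers in the enrichment of *Eif4ebp2*, *Eif1b* and *Eif5a2* was not tested. One marker each of radial glia, endothelium and microglia was called lower over input, *Sox2* at -1.18, *Cldn5* at -1.71 and *C1qa* at -1.52, and the microglial *Cx3cr1* was higher over IgG RIP at 1.42. The part of these cell types was not tested. Reads of genes with near-identical copies in the genome, among them *Eef1a1*, *Eif4a1*, *Eif1* and *Eif5a*, can be assigned to more than 1 place, and their counts are less certain than the replicate spread shows.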

How the data were processed

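RNA from input, IgG RIP and CELF2-KI RIP (3 libraries each) was depleted of rRNA, prepared as directional libraries and sequenced by the authors. The authors deposited 1 table of raw estimated counts per transcript, made with kallisto (0.51.1 in the submitters' processing notes, which also name DESeq2 1.46.0, edgeR 4.4.0 and mm10). No column was left out (0). Rows were matched to genes by RefSeq accession on GRCm38.p6. Of 107384 transcripts, 20662 had no gene in that table and were kept out of library sizes, and their share of counts in the IgG RIP libraries is given in the report.

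Counts were summed per protein-coding gene and rounded, and a gene was kept when 3 or more libraries reached 0.5 CPM, which left 15267 of 18559 with a count. All 9 libraries were fitted with edgeR 4.0.16 (R 4.3.3) using TMM and the quasi-likelihood test, with the Benjamini-Hochberg adjusted p (FDR) taken over all genes, and calls at FDR below 0.01 and at least 2-fold. The SE of a log2 fold change was its size divided by the square root of F. The common biological coefficient of variation was 0.221. TMM factors were 0.772 to 0.878 in CELF2-KI RIP, 1.05 to 1.08 in IgG RIP and 1.12 to 1.16 in input. Ratios of related genes used counts plus 0.5 and exact two-sided permutation tests (scipy 1.17.1). The fitting steps were tested on simulated data. Alternatives used other scalings, filters, transcript sets, DESeq2 1.42.0, glmTreat, a replicate block and each library left out in turn.

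Replicate numbers are shared across groups in the labels. Over 13558 genes, deviations from group means of same-numbered libraries correlated at 0.136, 0.106 and 0.160 between CELF2-KI RIP and input, above 0.1 in every pair, so these were taken as pairs. The main edgeR fit and the main permutation test nevertheless left the pairs out, and only the replicate block kept them. Between CELF2-KI RIP and IgG RIP the values were -0.058, 0.028 and 0.005, and between IgG RIP and input 0.065, 0.079 and 0.046, so those were not taken as pairs. Correlations this low cannot show that same-numbered libraries came from different preparations. The paper describes input as an aliquot of the cytoplasmic fraction from which the RIPs were made.

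The members and lists were chosen with earlier results of these data known. Values in every library are given for members called against both controls, both genes of each related pair, the highest and lowest of each factor group over IgG RIP, members called between the controls, and pathway genes called against both controls. Members named otherwise, including those given by fold changes alone, were named after their values were seen.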

Additional observations from a re-analysis of the deposited data

How the results depend on the processing

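With total counts, 3 members were higher over IgG RIP, 1 over input and 1 than both controls, and the eIF3 median over IgG RIP was -1.59. With upper-quartile scaling the eIF3 median was -1.50, 3 members were higher over input and 2 than both. With edgeR's glmTreat, 3 members were higher and 9 lower over IgG RIP, 1 and 14 over input, 1 and 7 than both, and 1 and 0 in IgG RIP against input, where 4 lower members had an unadjusted p under 0.05 and the quasi-likelihood test called 8. With curated transcripts 1 was higher and 3 lower in IgG RIP against input, and differences in log2 ratio were 0.75 for Eif2s3y to Eif2s3x, 1.64 for Eif4a2 to Eif4a1 and -0.59 for Eif4e2 to Eif4e, the last with an exact permutation test adjusted p of 0.0442. With matching accession versions 3 were higher over IgG RIP, 2 than both, and 4 lower in IgG RIP against input. Of the settings chosen after seeing the data, TMM over coding and noncoding genes gave 3 higher over input and 2 than both, and the 6 libraries of CELF2-KI RIP and input with a replicate block gave 3 higher and 33 lower over input, against 3 and 32 without the block. A window of 15 bases gave 24 members with a pyrimidine run.

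With the replicate block over all 9 libraries, 5 members were higher and 22 lower over IgG RIP, 5 and 27 over input, 2 and 6 in IgG RIP against input, and 4 and 20 than both. The added call over input was Eif3m. In IgG RIP against input *Eef1e1* and *Eif3e* were no longer called, at edgeR adjusted p-values of 0.0127 and 0.0205. For the related pairs the block left the differences at 1.60 (Eif1b), -1.33 (Eif2s3y), 1.05 (Eif4a2), -1.15 (Eif4e3), 2.94 (Eif4ebp2), 1.07 (Eif4h), 3.67 (Eif5a2) and -0.68 (Eef1a2), with an adjusted p of 0.120, which that design cannot go below here.

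Leaving out 1 library at a time gave 4 to 6 higher and 19 to 24 lower over IgG RIP, 3 to 6 and 23 to 29 over input, 1 to 2 and 4 to 10 in IgG RIP against input, and 2 to 4 and 16 to 22 than both. Without input replicate 3 there were 3 higher over input and 2 than both. In IgG RIP against input there were 4 lower without IgG RIP replicate 1, 1 higher and 5 lower without IgG RIP replicate 2 or input replicate 3, and 1 higher without input replicate 1 or 2. The eIF3 median lay between -1.47 and -1.16. Ratio differences lay between 1.49 and 1.71 (Eif1b), -1.43 and -1.22 (Eif2s3y), 0.80 and 1.202 (Eif4a2), -1.25 and -1.01 (Eif4e3), 2.71 and 3.35 (Eif4ebp2), 0.95 and 1.14 (Eif4h), 3.41 and 3.94 (Eif5a2) and -0.77 and -0.56 (Eef1a2), with adjusted p-values of 0.116 without a CELF2-KI RIP library and 0.0580 without a control, the smallest those designs allow here. The cause of these changes was not tested. RIP libraries were shallower than input, which limits genes such as Eif3j2, Eif4ebp1 and Eif1a.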
